A study of Mus musculus with 4 samples.

Results

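CTCF sites in exons away from promoters were examined in mouse liver at the start of the light phase (ZT0) and at its end (ZT12). A listed site was counted as exonic when its midpoint lay over 1 kb from every annotated transcript start and inside an exon, on the autosomes and in mm9 coordinates. Of 10038 autosomal sites listed at ZT0, 554 (5.52%) were exonic by this rule, and of 6756 listed at ZT12, 341 were (5.05%). Merging sites that overlapped between the lists left 620 exonic sites, of 11125 merged autosomal sites and 11223 with chromosome X. The lists hold far fewer sites than the study describes, so the densities, the shares in both lists and the shares of motif matches listed below are those of these lists and not of all CTCF sites.

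The livers came from wild-type male C57BL/6 mice, given as 8 weeks old. By the methods of the study, mice of that age were kept for 2 weeks in equal periods of light and dark, with free access to food. CTCF-bound DNA was recovered by ChIP-seq, in which chromatin fragments carrying a protein are pulled down with an antibody and sequenced. There were 2 biological replicates at each time point, the methods of the study describe replicates as pools of 2 livers, and 1 list of sites per time point stands for both replicates. Each list gives the position of a site and no height, strand or replicate, so sequencing depth is unknown here, no spread between replicates could be calculated, and intervals below are 95% Wilson intervals unless another kind is named. The lists are labelled as peaks on which a motif scanner was run, and whether that search selected the sites is not given in the sources used here. A place that is not listed was therefore not shown to be unbound. The intervals cover counting error over sites, which are not replicates of a time point, and the ZT0 list was longer than the ZT12 list in each class of sequence compared here.

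CTCF is a zinc-finger protein that binds a long asymmetric DNA sequence and, with the cohesin ring, holds the bases of chromatin loops and the borders of chromatin domains. The direction in which its sequence lies sets which side of the site faces the loop. In an exon the same bases can be bound by CTCF and read as part of a transcript, and in coding sequence they also spell codons, so that binding sequence and protein sequence share the DNA.

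Of the 554 exonic ZT0 sites, 302 overlapped a ZT12 site by at least 1 bp (54.5%, 50.3 to 58.6), beside 56.4% of all autosomal ZT0 sites. Of the 341 exonic ZT12 sites, 301 overlapped a ZT0 site (88.3%, 84.4 to 91.3), beside 83.9% of all autosomal ZT12 sites. The lower share at ZT0 goes with the longer list, and both exonic shares lay near those of the whole lists, with the lower bound at ZT12 just above its background. For ZT0 sites the same share was 52.2% in introns, 56.8% between genes and 62.4% at promoters, here the sequence within 1 kb of a transcript start. For ZT12 sites it was 79.1% in introns, 82.6% between genes and 92.6% at promoters. At both time points exonic sites thus stood between intronic and promoter sites in the share found in the other list.

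Overlap was nearly always exon with exon. Among the 302 overlapping ZT0 sites, the ZT12 site also had its midpoint in an exon in 275 cases, in an intron in 25, at a promoter in 1 and between genes in 1. Among the 301 overlapping ZT12 sites, the ZT0 site was exonic in 275 cases, intronic in 23 and at a promoter in 3. No exonic site of either list overlapped more than 1 site of the other list.

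Exons held more sites per length than introns or the sequence between genes. The 59.2 Mb of exon over 1 kb from transcript starts held 9.36 ZT0 sites per Mb (exact Poisson interval 8.60 to 10.2) and 5.76 ZT12 sites per Mb (5.17 to 6.41). Introns held 3.56 and 2.35 sites per Mb at ZT0 and ZT12, and the sequence between genes held 3.01 and 2.07. Promoters were denser than exons, with 20.4 and 13.8 sites per Mb. The order promoter, exon, intron and intergenic was the same in both lists. GC content, given further on, followed the same order for promoters, exons and introns, and its part in the densities was not tested.

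Within transcripts, most exonic sites lay in coding sequence or in the 3′ untranslated region (UTR). Of the ZT0 sites, 229 lay in coding sequence (41.3%, 37.3 to 45.5) and 233 in a 3′ UTR (42.1%, 38.0 to 46.2). A further 44 lay in other exons of protein-coding genes, those of transcripts with no annotated coding sequence, 43 in exons of other genes and 5 in a 5′ UTR. At ZT12 the counts were 127 in coding sequence (37.2%, 32.3 to 42.5), 150 in a 3′ UTR (44.0%, 38.8 to 49.3), 32 in other exons of protein-coding genes, 29 in exons of other genes and 3 in a 5′ UTR. The rule removes the start of each transcript, and few 5′ UTR bases, 0.518 Mb, remained for a site to fall in.

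Per length, coding sequence and 3′ UTRs held similar numbers of sites. ZT0 sites numbered 9.05 per Mb of coding sequence (exact Poisson interval 7.92 to 10.3) and 9.82 per Mb of 3′ UTR (8.60 to 11.2), and ZT12 sites 5.02 (4.18 to 5.97) and 6.32 (5.35 to 7.42). The intervals of coding sequence and 3′ UTR overlapped at each time point. Exon sequence within 1 kb of a transcript end held 10.7 ZT0 sites per Mb (9.55 to 12.0), against 8.05 (7.06 to 9.13) in exon sequence farther from every end. The corresponding ZT12 densities were 6.89 (5.97 to 7.90) and 4.66 (3.92 to 5.50), so the exon sequence next to transcript ends was the denser at both times.

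Most exonic sites were in the last exon. At ZT0, 372 sites lay in the last exon of the transcript used for the site (67.1%, 63.1 to 70.9), 167 in an internal exon, 9 in the exon of a single-exon transcript and 6 in a first exon long enough to reach over 1 kb from its start. At ZT12 these counts were 240 (70.4%, 65.3 to 75.0), 90, 6 and 5. Last exons are long, and the share of the searched exon sequence that lies in them was not calculated. The counts therefore do not show whether last exons held more sites per length than other exons. The exons holding sites had a median length of 1256 bp in the ZT0 list and 1433 bp in the ZT12 list. The median distance to the nearest transcript start was 5.50 kb at ZT0, with quartiles of 2.57 and 11.8 kb, and 5.86 kb at ZT12. The whole listed site fitted inside 1 exon for 334 ZT0 sites (60.3%) and 226 ZT12 sites (66.3%).

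Protein-coding genes held 511 of the exonic ZT0 sites and 312 of the ZT12 sites. Genes typed as long intergenic non-coding RNA in the annotation used here held 28 ZT0 and 20 ZT12 sites. This type is that of the annotation release, and includes Nlrc5 and Tdrd5, known as protein-coding genes, and Ppp4r1l-ps, which is named as a pseudogene. Of those 28 sites, 21 were also listed at ZT12 (75%, 56.6 to 87.3), and all 20 ZT12 sites were also listed at ZT0. In coding sequence the ZT0 sites overlapped a ZT12 site in 113 of 229 cases (49.3%, 42.9 to 55.8), and in 3′ UTRs in 129 of 233 (55.4%, 48.9 to 61.6). In the ZT12 list the shares were 112 of 127 (88.2%, 81.4 to 92.7) and 128 of 150 (85.3%, 78.8 to 90.1). Coding sequence and 3′ UTR therefore did not differ beyond counting error in how often a site was in both lists.

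The width of a site, beside its position the only quantity that the lists give, was larger at ZT0. The median width of exonic sites was 316 bp at ZT0 (binomial 95% interval of the median 310 to 328), with quartiles of 265 and 392 bp and a range of 60 to 835 bp. At ZT12 the median was 284 bp (272 to 296), with quartiles of 242 and 357 bp and a range of 202 to 817 bp. Exonic widths were close to those of all autosomal sites, whose medians were 313 bp in the ZT0 list and 285 bp in the ZT12 list.

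Wider sites were more often in both lists. Among the 139 narrowest exonic ZT0 sites, of 60 to 265 bp, 41 overlapped a ZT12 site (29.5%, 22.5 to 37.5), and among the 139 widest, of 392 to 835 bp, 111 did (79.9%, 72.4 to 85.7). Between them, 74 of the 139 sites of 266 to 316 bp (53.2%) and 76 of the 137 sites of 317 to 391 bp (55.5%) did. At ZT12 the share went from 67 of the 86 sites of 202 to 242 bp (77.9%, 68.1 to 85.4) to 82 of the 85 sites of 358 to 817 bp (96.5%, 90.1 to 98.8). A wide site also has more room to overlap another, and that part of the relation was not tested. The median width was 362 bp for exonic ZT0 sites that were in both lists and 288 bp for those listed at ZT0 only, and at ZT12 it was 290 and 243 bp. All autosomal sites showed the same order, with 346 and 277 bp at ZT0 and 294 and 250 bp at ZT12.

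Where a site was in both lists, its ZT12 entry was usually the narrower one. Of the 302 pairs with an exonic ZT0 site, 224 were narrower at ZT12 and 78 wider (74.2% narrower, 69.0 to 78.8), and the median of ZT12 minus ZT0 width was -52.5 bp (-66 to -38). Over all 5645 autosomal pairs the median difference was -47 bp, and leaving out the 23 pairs of equal width 71.5% were narrower at ZT12. The narrowing of exonic pairs was therefore of the size seen across the lists.

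The pairs at the ends of this range were spread over several genes. In Vill, which encodes a villin-like actin-binding protein, the site measured 552 bp at ZT0 (chr9:118976581-118977132) and 210 bp at ZT12, a difference of -342 bp. In coding exon 5 of 22 of Capn11, a calpain protease gene, the site went from 590 bp at ZT0 (chr17:45779613-45780202) to 260 bp at ZT12. Foxa1, a pioneer transcription factor of liver, had a site of 540 bp at ZT0 and of 220 bp at ZT12. These entries and those of Fignl1 (791 and 481 bp) and Ppp4r1l-ps (519 and 216 bp) lost the most width. The largest gain was in the last coding exon of Tymp, the thymidine phosphorylase gene, from 222 bp at ZT0 (chr15:89203890-89204111) to 461 bp at ZT12. Gains of 153 to 166 bp followed in Pard6g (277 to 443 bp), Scube3 (295 to 453 bp), Elmod3 (289 to 444 bp) and Pdxk, the pyridoxal kinase gene (288 to 441 bp). The gains were smaller than the losses. Of the 5 gains 3, those in Pard6g, Elmod3 and Pdxk, were in 3′ UTRs, beside 42.1% of all exonic ZT0 sites. The ZT12 entries of Tymp, Capn11 and Scube3 had their midpoints in introns, so these 3 sites were exonic by the rule at ZT0 only.

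Exonic sites were richer in G and C than intronic sites and poorer than promoter sites. In the 200 bp around the midpoint, the median GC content was 55.5% at ZT0 (binomial interval 54.5 to 56) and 55.5% at ZT12 (54 to 56.5). It was 51.5% in intronic and 60.5% in promoter ZT0 sites, and 52% and 60.5% at ZT12. Coding sequence lay above the 3′ UTR within the exonic sites, with medians of 59% and 54% at ZT0 and 61% and 53.5% at ZT12. Exonic ZT12 sites that were not listed at ZT0 had a median of 52.2% (49 to 54), against 56% (55 to 57.5) for those in both lists. The same order was seen over all autosomal ZT12 sites, at 49% and 54%.

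The CTCF sequence was learned from the sites themselves as a 19 bp weight matrix, once from the odd and once from the even chromosomes, and each set of chromosomes was scored with the matrix of the other. Both matrices started from the same 10 bp word, CAGGGGGCGC, and had the same most frequent bases, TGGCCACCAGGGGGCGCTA, searched on both strands. A match is a score that 1% of regions of the same length 5 kb away pass. By this threshold 411 of 554 exonic ZT0 sites held a match (74.2%, 70.4 to 77.7), beside 72.6% of all autosomal ZT0 sites. At ZT12, 264 of 341 did (77.4%, 72.7 to 81.5), beside 74.3% of all autosomal ZT12 sites. The exonic shares were close to these backgrounds. None of these shares can be told apart from any selection of sites by the motif search of the submitters. In regions 5 kb from the exonic sites, 18 of 1084 held a match at ZT0 (1.66%) and 8 of 671 at ZT12 (1.19%).

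The share of sites with a match varied over the exon parts, and these differences were not tested. At ZT0, 153 of 229 sites in coding sequence held one (66.8%), 30 of 44 in other exons of protein-coding genes (68.2%), 185 of 233 in 3′ UTRs (79.4%) and 38 of 43 in exons of genes not annotated as protein-coding (88.4%). At ZT12 the counts were 91 of 127 (71.7%), 25 of 32 (78.1%), 119 of 150 (79.3%) and 26 of 29 (89.7%). The best match, whether or not it passed the threshold, lay wholly inside the exon for 492 of 554 ZT0 sites (88.8%) and 303 of 341 ZT12 sites (88.9%). Among sites with a match that passed, it did so for 363 of 411 and 231 of 264. Most sites with an exonic midpoint thus also had an exonic best match. Sites with a match were in both lists in 232 of 411 cases at ZT0 (56.4%, 51.6 to 61.2), and sites without one in 70 of 143 (49.0%, 40.9 to 57.1), intervals that overlap.

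A CG dinucleotide, at which cytosine can be methylated, was more frequent in matches of exonic than of intronic sites. These are called exonic and intronic matches in this and the next paragraph, wherever in the site the match lay. It was present in 263 of 411 exonic matches at ZT0 (64.0%, 59.2 to 68.5), against 47.7% (45.7 to 49.7) in introns, 53.5% (51.8 to 55.2) between genes and 74.4% (71.7 to 76.8) at promoters. At ZT12 it was present in 163 of 264 exonic matches (61.7%, 55.8 to 67.4) and in 47.0% of intronic ones. Most of these dinucleotides were at positions 15 and 16 of the matrix, where CG was found in 217 of 411 exonic matches at ZT0 (52.8%, 48.0 to 57.6) and 39.3% (37.3 to 41.2) of intronic ones. At positions 5 and 6 the shares were 10.7% (8.07 to 14.1) and 4.53% (3.78 to 5.43). Methylation was not analysed here.

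Sites listed at ZT12 only held this dinucleotide less often. Of their 30 exonic matches 10 had a CG (33.3%, 19.2 to 51.2), against 153 of 234 matches in exonic ZT12 sites that were in both lists (65.4%, 59.1 to 71.2). The order was the same over all autosomal ZT12 sites, at 41.8% and 59.6%. At ZT0 the exonic sites in both lists and those listed at ZT0 only were alike, with 64.7% (58.3 to 70.5) and 63.1% (55.9 to 69.9), while over all autosomal ZT0 sites the shares were 59.5% (58.0 to 61.0) and 49.6% (47.8 to 51.4).

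Matches of exonic sites, whether or not the match itself was inside the exon, lay on both strands of the gene. Leaving out sites with exons on both strands, 218 of 406 ZT0 matches were on the strand opposite to the gene (53.7%, 48.8 to 58.5) and 144 of 259 ZT12 matches were (55.6%, 49.5 to 61.5). In sites with a 3′ UTR midpoint the strands were nearly equal. There, 93 matches were on the strand of the gene and 89 opposite at ZT0, and 57 and 59 at ZT12. In sites with a coding midpoint 90 of 152 matches were opposite at ZT0 (59.2%, 51.3 to 66.7) and 57 of 90 at ZT12 (63.3%, 53.0 to 72.6). Coding matches from a scan of the genome were placed by the match itself and not by the midpoint of a site. Of these, 75 of 131 within ZT0 sites were opposite (57.3%, 48.7 to 65.4), and 42 of 73 within ZT12 sites (57.5%, 46.1 to 68.2). In neither list 274 of 479 were (57.2%, 52.7 to 61.6), so listed and unlisted coding matches were alike in this respect.

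In coding sequence the match also has a position relative to the codons. The position given here is that, within its codon, of the base of the match that comes first in the direction of the gene. Where the whole match lay in coding sequence on the strand of the gene, 34 of 48 ZT0 matches began at codon position 3 (70.8%, 56.8 to 81.8), 11 at position 1 and 3 at position 2. At ZT12 the counts were 14, 5 and 2 of 21. On the opposite strand the order differed, and 31 of 61 ZT0 matches began at codon position 1 (50.8%, 38.6 to 62.9), 21 at position 2 and 9 at position 3, with 15, 14 and 6 of 35 at ZT12. The uneven use of positions was also present in coding matches that lay in neither list. There, 106 of 205 matches on the strand of the gene began at codon position 3 (51.7%, 44.9 to 58.5), 71 at position 1 and 28 at position 2. Of the unlisted opposite-strand matches, 122 of 274 began at position 1 (44.5%), 93 at position 2 and 59 at position 3. On the strand of the gene, coding matches within ZT0 sites began at position 3 in 40 of 56 cases (71.4%, 58.5 to 81.6), a share with an interval that just meets that of unlisted matches.

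A scan of the autosomes with the same matrices and threshold set the exonic sites against matches that were not listed. Exons over 1 kb from transcript starts held 1659 matches, 28.0 per Mb, and introns 22.3 per Mb. Of the exonic matches, 406 lay in a ZT0 site (24.5%, 22.5 to 26.6) and 257 in a ZT12 site (15.5%, 13.8 to 17.3). For introns these shares were 13.5% and 9.12% (8.72 to 9.53), between genes 14.8% and 10.4%, and at promoters 33.0% and 24.5%. An exonic match was thus listed more often than an intronic one and less often than one at a promoter. Within exons, 194 of 659 matches in 3′ UTRs lay in a ZT0 site (29.4%, 26.1 to 33.0), against 136 of 665 in coding sequence (20.5%, 17.6 to 23.7). At ZT12 the shares were 19.4% (16.6 to 22.6) and 11.6% (9.36 to 14.2). At this threshold coding matches were listed less often than 3′ UTR matches, with intervals that did not overlap. With a score 2 bits higher the intervals overlapped, at 39.4% (34.6 to 44.4) of 3′ UTR and 34.0% (29.0 to 39.3) of coding matches in a ZT0 site, and 25.7% (21.6 to 30.3) and 18.9% (14.9 to 23.5) in a ZT12 site.

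Chromosome 11 held the most exonic sites, with 67 at ZT0 and 50 at ZT12, or 7.53% and 8.33% of its listed sites. At ZT0 the share was highest on chromosome 17 (7.76%) and lowest on chromosome 9 (2.26%), and at ZT12 it was highest on chromosome 11 and lowest on chromosome 12 (3.28%), with 5.83% on chromosome 17 and 3.44% on chromosome 9. The nearest other site of the same list was closer for exonic sites than for others at ZT0, with a median distance of 20.0 kb, against 33.2 kb for intronic, 32.5 kb for intergenic and 29.7 kb for promoter sites. At ZT12 these medians were 38.7, 48.2, 46.1 and 40.2 kb.

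Exonic sites were in 545 genes at ZT0 and 339 at ZT12, together 611 genes, and 10 of these held 2 separate exonic sites. Each site was counted for 1 gene only, also in the shares of genes below, although 11 ZT0 and 10 ZT12 sites lay in exons of more than 1 gene. No gene held 3 or more. These 10 genes, chosen after their values were seen, included Vwf, which encodes von Willebrand factor, Ephb2, an ephrin receptor gene, Tnfrsf1b, a receptor of tumour necrosis factor, and Tomm40, which encodes the channel of the mitochondrial outer membrane import complex. In Srcin1 and Rimbp3 both sites were in both lists. Rimbp3 held its pair in its single coding exon, at chr16:17209171-17209611 and chr16:17210130-17210483 at ZT0. In Ephb2 and Tomm40 both sites were listed at ZT0 only. In Slc36a2, an amino acid transporter gene, a 3′ UTR site was listed at ZT0 only and a coding site at ZT12 only.

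The 5 widest exonic sites in both lists were mostly in last exons, as were 67.1% of all exonic ZT0 sites. That of Gdf15, which encodes a stress-induced hormone of the TGF-beta family, was 835 bp wide at ZT0 (chr8:73153527-73154361) and 545 bp at ZT12 (chr8:73153573-73154117), in coding exon 2 of 2. Sp6, a zinc-finger transcription factor gene, had 823 bp at ZT0 (chr11:96883138-96883960) and 704 bp at ZT12, also in coding exon 2 of 2. Fignl1, which encodes an ATPase of DNA repair, had its site in the last exon of a transcript with no annotated coding sequence (chr11:11688362-11689152). In 1700020L24Rik the widths were 751 bp at ZT0 (chr11:83253869-83254619) and 817 bp at ZT12, in coding exon 3 of 3. Rab11fip3, an effector of endosome recycling, was the exception among these 5, with its ZT0 site of 737 bp (chr17:26148638-26149374) on internal exon 6 of 15. The best match of this ZT0 site lay outside that exon, and the ZT12 site of Rab11fip3, of 595 bp, had its midpoint in an intron. Of the 5, only the Rab11fip3 and Fignl1 sites had a GC content under 60% at ZT0, at 53% and 43.5%.

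Sites listed at 1 time point only were narrower at their upper end. At ZT0 the widest were in the 3′ UTR of G630016D24Rik (679 bp, chr14:52638863-52639541) and in an exon of Hadh, which encodes a dehydrogenase of mitochondrial fatty acid oxidation (670 bp, chr3:130948807-130949476). Idua, the gene of the lysosomal enzyme iduronidase, followed with 519 bp on coding exon 6 of 15 (chr5:109108949-109109467). The 3′ UTRs of Tmem63a (496 bp, chr1:182904373-182904868) and Pbxip1 (493 bp, chr3:89253426-89253918) completed the 5 widest. At ZT12 the widest such site, 459 bp, was on coding exon 9 of 13 of Ghrhr, the receptor gene of growth hormone-releasing hormone (chr6:55333924-55334382). It was followed by the 3′ UTRs of Sfxn4 (378 bp, chr19:60913653-60914030) and Oaf (364 bp, chr9:43029707-43030070), coding exon 9 of 10 of Slc36a2 (338 bp, chr11:54976135-54976472) and the 3′ UTR of Ypel3 (330 bp, chr7:133923553-133923882). In 9 of these 10 sites a match passed the 1% threshold, and the Slc36a2 site, with a score of 14.2, was the exception. A match passed in 71.0% of all exonic sites listed at ZT0 only and in 75% of those listed at ZT12 only. The best match lay outside the named exon in Slc36a2 and partly outside it in Idua.

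Matrix scores of odd and even chromosomes come from different matrices with different thresholds, so their order over both sets compares unlike scales. In that order the highest exonic score, 26.5 bits, was in coding exon 2 of 2 of Crh, which encodes corticotropin-releasing hormone. Its site was in both lists, with 374 bp at ZT0 (chr3:19593840-19594213) and 302 bp at ZT12 (chr3:19593966-19594267). Next came the 3′ UTR of the phosphatase gene Ptp4a3 (26.0 bits, chr15:73587524-73587988 at ZT0), coding exon 10 of 22 of Scube3 (25.4 bits, chr17:28300655-28300949), the 3′ UTR of the phosphatase gene Dusp3 (25.4 bits, chr11:101832724-101833015) and exon 4 of 5 of the non-coding gene Gm11201 (25.3 bits, chr11:78844029-78844313). The Scube3 match lay outside the exon that holds the midpoint of its site. These 5 sites were all on odd chromosomes, and the 3′ UTR site of Zbtb7b also reached 25.3 bits. The first 4 named overlapped a ZT12 site, and the Gm11201 site was listed at ZT0 only.

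Genes of the core clock had no exonic site in either list, 0 of 17, beside 2.66% of autosomal protein-coding genes (569 of 21418) with one. A count of 0 of 17 allows a share of up to 18.4% by the Wilson interval. Of 14 known outputs of the clock in liver, Elovl3, the gene of an elongase of very long fatty acids, had one, with 354 bp in its 3′ UTR at ZT0 only (chr19:46209749-46210102). Of 34 liver transcription factors, Foxa1 and Srebf1 had one. The Srebf1 site lay in the 3′ UTR of this regulator of lipid synthesis, and was 362 bp wide at ZT0 (chr11:60013180-60013541) and 411 bp at ZT12 (chr11:60013140-60013550). The Foxa1 site lay in coding exon 2 of 2 (chr12:58643167-58643706 at ZT0, chr12:58643287-58643506 at ZT12), and its best match, at 6.41 bits, passed neither threshold.

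Of 60 plasma protein genes, Apoa1 and F12 had an exonic site. Apoa1 encodes the main protein of high-density lipoprotein, and its site of 317 bp in coding exon 4 of 4 was listed at ZT0 only (chr9:46038003-46038319). F12 encodes coagulation factor XII, and its site of 256 bp in coding exon 14 of 14 was exonic at ZT12 (chr13:55519491-55519746), while the overlapping ZT0 site of 281 bp had its midpoint in an intron (chr13:55519495-55519775). Of 59 genes of glucose, lipid and nitrogen metabolism and its hormonal control, Fbp2, a fructose bisphosphatase gene, had a site, on coding exon 2 of 7 at ZT0 only (chr13:62956106-62956431). Of 28 genes of chromatin architecture, Smc1b, which encodes a cohesin subunit of meiosis, had one, on coding exon 21 of 25 at ZT0 only (chr15:84901082-84901364). The best matches of the Fbp2 and Smc1b sites lay outside these exons, and that of Smc1b was below the 1% threshold. Of 39 imprinted genes, the organic cation transporter gene Slc22a3 had one, in its 3′ UTR at ZT0 only (chr17:12614110-12614343). The shares in these lists, from 0% to 7.14%, all had Wilson intervals that held the 2.66% of protein-coding genes.

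Gene families named by a shared prefix were also counted, without a correction for the length of their exons. Genes of laminins and integrins had an exonic site in 5 of 42 cases (11.9%, 5.19 to 25.0), namely Itga6, Itga10, Itgb4, Itgb7 and Itgb1bp3, of which the last shares the prefix without being an integrin. Dynein and myosin heavy chain genes had one in 5 of 66 (7.58%, 3.28 to 16.5), in Dnahc1, Dnahc17, Myh14, Myo3b and Myo7a. Both intervals lay above 2.66%, and both families hold genes with long coding sequences, of which the part in these counts was not tested. They were the highest shares among the families counted, with no correction for the number of families. These counts join both lists. In each list alone dynein and myosin genes had 3 of 66, and laminins and integrins had 5 of 42 at ZT0 and 4 of 42 at ZT12, without intervals. Not all of these sites were coding. At ZT0 those of Itgb4, Itgb7, Myo3b and Myo7a lay in coding sequence, and those of Itga10, Itgb1bp3 and Dnahc17 in 3′ UTRs. The Itga6 site lay in an exon of a transcript with no annotated coding sequence. The other families had intervals that held it. Collagens had 3 of 46 (Col1a1, Col4a2 and Col4a3), cadherins 2 of 37 (Cdh22 and Cdhr2) and solute carriers 14 of 358 (3.91%). Genes with the prefixes Cacna, Scn or Kcn, those of calcium, sodium and potassium channels, had 5 of 125 (Kcnh4, Kcnj9, Kcnk15, Kcnn4 and Scn8a), genes with the Zfp prefix 5 of 365 (Zfp219, Zfp36l1, Zfp385a, Zfp385c and Zfp503), homeobox cluster genes 1 of 40 (Hoxd11), clustered protocadherins 1 of 24 (Pcdhgc5) and semaphorins and plexins 0 of 27.

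Cytochrome P450 genes, many of which encode drug and fatty acid oxidases of liver, had an exonic site in 3 of 100 cases (3%, 1.03 to 8.45). All 3 were 3′ UTRs of the Cyp4f cluster on chromosome 17, and they are described after their values were seen. The Cyp4f16 site was in both lists, with 286 bp at ZT0 (chr17:32688121-32688406) and 274 bp at ZT12. Cyp4f15 had one of 172 bp at ZT0 only (chr17:32839844-32840015) and Cyp4f14 one of 212 bp at ZT12 only (chr17:33042196-33042407).

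The sequences of best matches in coding sequence are printed to show how the letters of the matrix and the codons fall together, and which bases CTCF binds was not measured. They are given for coding sites among the widest, among those with the highest scores or in the gene lists by function, where the best match lay wholly in coding sequence. Sites named for a change of width, for a gene family or for the number of sites in a gene are left out. The sequences are in mm9, on the strand that carries the match, with the 19 bp match in capitals and up to 20 coding bases on each side in lower case. The first set is on the strand of the gene. That of Crh (chr3:19594040-19594098, minus strand, 26.5 bits), 1700020L24Rik (chr11:83253980-83254038, plus strand, 22.9 bits) and Apoa1 (chr9:46038084-46038142, plus strand, 17.8 bits) began at codon position 3, the most frequent one on this strand. The 1700020L24Rik match lay outside the exon that holds the midpoint of its site. The Gdf15 match (chr8:73153771-73153829, minus strand, 20.3 bits) began at codon position 2, and that of Foxa1 (chr12:58643373-58643431, minus strand, 6.41 bits), below the 1% threshold, at codon position 1.
Crh: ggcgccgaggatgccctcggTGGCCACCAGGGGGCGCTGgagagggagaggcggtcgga
1700020L24Rik: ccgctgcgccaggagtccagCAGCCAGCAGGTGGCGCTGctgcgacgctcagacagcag
Apoa1: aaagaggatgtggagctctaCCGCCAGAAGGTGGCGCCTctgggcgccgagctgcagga
Gdf15: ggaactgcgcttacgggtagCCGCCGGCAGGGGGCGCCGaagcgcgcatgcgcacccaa
Foxa1: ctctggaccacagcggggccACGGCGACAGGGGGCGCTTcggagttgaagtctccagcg

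The remaining matches of this selection lay opposite to the gene, and their codons read on the other strand. Those of Ghrhr (chr6:55334127-55334145, minus strand, 19.3 bits) and F12 (chr13:55519600-55519618, plus strand, 10.7 bits) are shown without flanks, since fewer than 20 coding bases remained on a side. The Sp6 match (chr11:96883660-96883718, minus strand, 12.3 bits) and the F12 match began at codon position 1, the most frequent one on this strand, and the Ghrhr match at codon position 3. The Sp6 and F12 matches were below the 1% threshold.
Sp6: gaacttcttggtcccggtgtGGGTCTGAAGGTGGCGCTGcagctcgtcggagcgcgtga
Ghrhr: CCACCAGCAGGGGGAGCTG
F12: CACACACCAGAGGGCCCCC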

How the data were processed

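Per the processing notes and methods of the submitters, the authors mapped reads to mm9 with Bowtie2, filtered them with SAMtools and called peaks with MACS2. The deposited lists, 1 per time point, are labelled as peaks for the replicate pair on which the motif scanner FIMO was run. They give site start and end, and how the replicates were combined is not given in the sources used here. Sites were classed by midpoint with the NCBIM37 sequence and GENCODE release M1 of the same build, in the order promoter, exon, intron and intergenic, and membership of the exonic class depends on this release. Within exons the order was coding sequence, 3′ UTR, 5′ UTR, other exon of a protein-coding gene and exon of another gene. The weight matrix was refined over 3 rounds from the 10 bp word most enriched over regions 5 kb away, with a strict threshold of 1% and a lenient one of 5%. Named sites were the 5 widest in both lists and in each list alone, the 5 highest scores, the largest changes in width and all sites in 7 gene lists, with further ones marked as such. The members and lists were chosen with earlier results of these data known. The steps were tested on simulated data. Python 3.11.15, NumPy 2.4.6, SciPy 1.17.1 and numba 0.67.0 were used.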

Additional observations from a re-analysis of the deposited data

How the results depend on the processing

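No paired analysis was possible because each list stands for both replicates at once, and for the same reason no replicate could be left out. No value had a test. Only 18 results were recomputed with 1 choice changed at a time and compared with the value reported. Outside these, match shares of other site classes were also calculated at the 5% threshold. Listed shares of matches in other classes and in exon parts were also calculated with a score 2 bits higher. At that score the intervals of 3′ UTR and coding matches overlapped. The remaining results, among them the CG shares, the paired widths, the exon ranks, the distances between sites and the shares in gene lists, had no alternative. Of 54 recomputed values of the 18 results, 32 stayed within the 95% interval of the value reported, or within 1.5 times for counts. With the ZT0 list reduced to its widest sites, as many as the ZT12 list holds, 64.6% of exonic ZT0 sites were shared and 73.6% of exonic ZT12 sites, a setting that changes both the list length and the widths kept. In coding sequence alone 49.3% of ZT0 sites were shared. Counts of exonic sites at ZT0 and ZT12 were 292 and 183 over 5 kb from transcript starts, 971 and 609 for any overlap with an exon, 334 and 226 for sites wholly inside 1 exon, and 229 and 127 in coding sequence. Over 5 kb from transcript starts, exons held 7.80 and 4.89 sites per Mb, and coding sequence held 5.02 at ZT12. The median GC content over whole ZT0 sites was 54.3%. With the 5% threshold 93.0% of ZT0 and 94.7% of ZT12 sites held a match, and within 100 bp of the midpoint 70.0% of ZT0 sites did. In sites with a coding midpoint alone 59.2% and 63.3% of matches were opposite to the gene. With a score 2 bits higher 36.9% and 23.1% of exonic matches were listed. Beyond these constructions the cause was not tested.

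The lists hold positions only, so weaker binding cannot be told from absence at a time point, and a site that the peak caller or any selection by the motif search left out counts as not listed. The ZT0 list is longer, and sequencing depth is unknown here. Midpoints of the same site can fall in an exon in 1 list and in an intron in the other.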
